A study of Homo sapiens with 12 samples.

Results

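Niclosamide (NSM) is an oral drug against tapeworms, and its transcriptional effect was measured here by comparing 3 NSM libraries with 3 DMSO libraries, that is 6 of the 12 libraries of the series, chosen by their treatment labels alone. The cells were SHI-1, an established acute myeloid leukemia line of monocytic type that carries the MLL-AF6 fusion. The NSM libraries came from cells given 5 µM niclosamide for 16 hours and the DMSO libraries from cells given the solvent DMSO for 16 hours, and neither label names copper, which the labels give for the disulfiram (DSF) libraries of the series. The labels describe 3 independent experiments, with total RNA made into Illumina TruSeq RNA libraries, so n = 3 per group throughout. The only model is this cell line, and the p-values measure only the spread between these 6 libraries.

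NSM is a salicylanilide that carries protons across the inner mitochondrial membrane and thereby uncouples respiration from ATP synthesis. Mitochondrial stress of this kind is one of the known inputs of the integrated stress response, in which kinases phosphorylate the initiation factor eIF2, general translation falls, and translation of the transcription factor ATF4 rises. ATF4 in turn switches on genes for amino acid synthesis, amino acid import and tRNA charging. NSM has also been studied as an inhibitor of STAT3, NF-kB, Wnt, Notch and mTOR signalling, and genes of each of these pathways were therefore read out below.

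The deposited values were normalized counts, which are estimated read counts of a gene divided by a factor for its library, so they compare 1 gene between libraries and not the RNA content of a cell. Their sums were 13963864 to 14379702 in the DMSO libraries and 16477426 to 17516910 in the NSM libraries, and the depth estimated from the smallest step of each library was 14513200 to 19031000 reads for DMSO and 13554300 to 17843600 for NSM. Ribosomal RNA took 1.88 to 3.58% of the sums with DMSO and 4.70 to 5.53% with NSM. Myeloid markers differed in level in the DMSO libraries. MPO, a granule peroxidase, was abundant at 54162, 57371 and 62640.4, as was SPI1, the myeloid master regulator, at 4477, 4536 and 4668. The monocytic markers CD14, at 64.8, 54.0 and 60.1, and CSF1R, at 71.9, 75.4 and 88.5, were low. Of 20 markers of lymphoid, erythroid, platelet, epithelial, fibroblast, endothelial and liver cells, 10 were listed and 6 passed the filter on low values, among them the lymphoid gene NKG7 at 1035, 951 and 975 with DMSO. Their summed normalized count was 1972 to 2047 with DMSO and 1738 to 2801 with NSM. Of the 6, CD3E, a T cell receptor subunit, rose by 1.00 and PECAM1, an adhesion protein that monocytes carry as well, fell by 0.70 on the log2 scale, and their part in the results was not tested.

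Replicate 3 of NSM stood apart from the other NSM libraries. Spearman's rho across the genes tested was 0.994 between NSM replicates 1 and 2, and 0.929 and 0.942 between replicate 3 and each of these, against 0.994 to 0.996 between the DMSO libraries. The deviation of this library followed the GC content of the transcripts. In the 20% of genes with the lowest GC content, its median difference from the DMSO mean was 0.74 on the log2 scale, and in the 20% with the highest it was -0.70. The same medians ran from -0.24 to 0.28 in replicate 1 and from -0.10 to 0.17 in replicate 2, that is in the opposite order. The cause of this deviation was not tested. The counts of genes called are therefore also given for NSM replicates 1 and 2 alone against the 3 DMSO libraries, where the share called was larger over all genes too. A further library-specific pattern was seen in NSM replicate 2, in which 22 genes reached a normalized count of 10 or more while staying at 5 or less, and more than 4-fold lower, in the other 5 libraries, against 0 to 7 such genes in each of the others. All 22 also reached 10 in replicate 1 of the combination of DSF and NSM. Examples chosen after their values were seen were PROM1, a stem cell surface protein, at 59.4 in NSM replicate 2 and at most 1.06 in the other 5 libraries, and EBF1, a B cell transcription factor, at 19.6 and at most 2.03. By this definition none of the 22 could pass the filter on low values, so none entered a test. Their source was not tested, nor was its effect on the values of tested genes in NSM replicate 2.

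**Figure D1:**
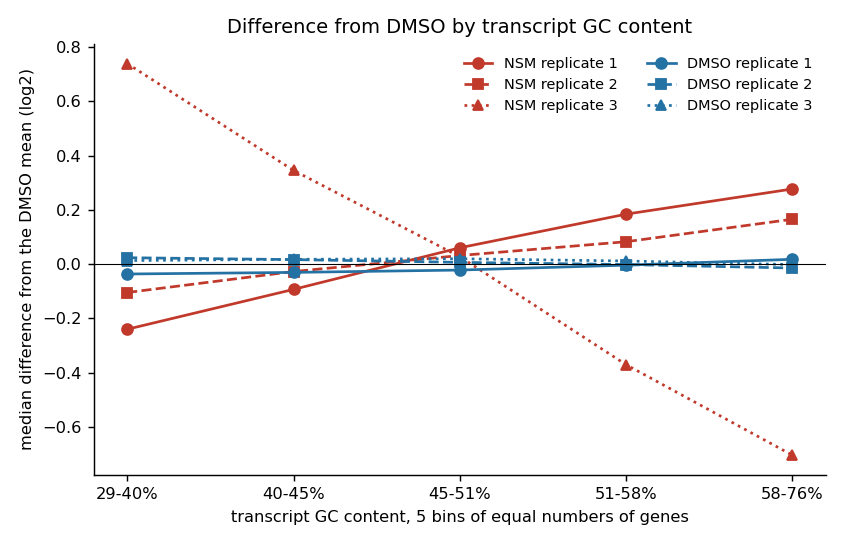
Median difference of each library from the DMSO mean (y axis, log2 scale) in 5 bins of the genes tested by transcript GC content (x axis, percent), for the 3 NSM libraries in red and the 3 DMSO libraries in blue. NSM replicate 3 falls from 0.74 to -0.70 from left to right, NSM replicates 1 and 2 rise, and the DMSO libraries stay near 0.

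NSM changed a large part of the transcriptome. Of 14866 genes listed, 12649 reached a normalized count of 10 in at least 3 of the 6 libraries and were tested with limma on log2(value + 1). At an adjusted p under 0.05, 4991 genes were called, which is 39.5% of those tested, with 2581 higher with NSM (20.4%) and 2410 lower (19.1%). With an absolute log2 fold change of at least 1 as well, 3049 genes remained (24.1%), 1463 higher and 1586 lower. Fold changes are given on the log2(value + 1) scale, which understates the change of genes with low counts. Changes of at least 4 on this scale were called for 26 genes that rose and 19 that fell. The median over all genes tested was 0.02 and the median standard error 0.25.

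Groups did not overlap for 7404 genes tested (58.5%) and for 4989 of the 4991 genes called, so for the genes described below as risen or fallen every NSM library lay on the same side of every DMSO library unless stated. With NSM replicates 1 and 2 alone the median standard error was 0.12 and 8920 genes (70.5%) were called, 36.3% higher and 34.2% lower. Of the 4991 calls of the full comparison, 4977 were called in the same direction there and 0 in the opposite direction. Both comparisons share the DMSO libraries and NSM replicates 1 and 2, so this overlap is not independent support. The filter let 143 genes through only by their NSM values and 214 only by their DMSO values. Among the 11391 genes with a count of at least 10 in all 6 libraries, 2364 were called higher and 2069 lower. If the libraries were scaled to equal sums instead, the median of all genes moved to -0.25, and 1648 genes were called higher and 3503 lower, so the share of higher genes among the calls was 32.0% in place of 51.7%.

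**Figure D2:**
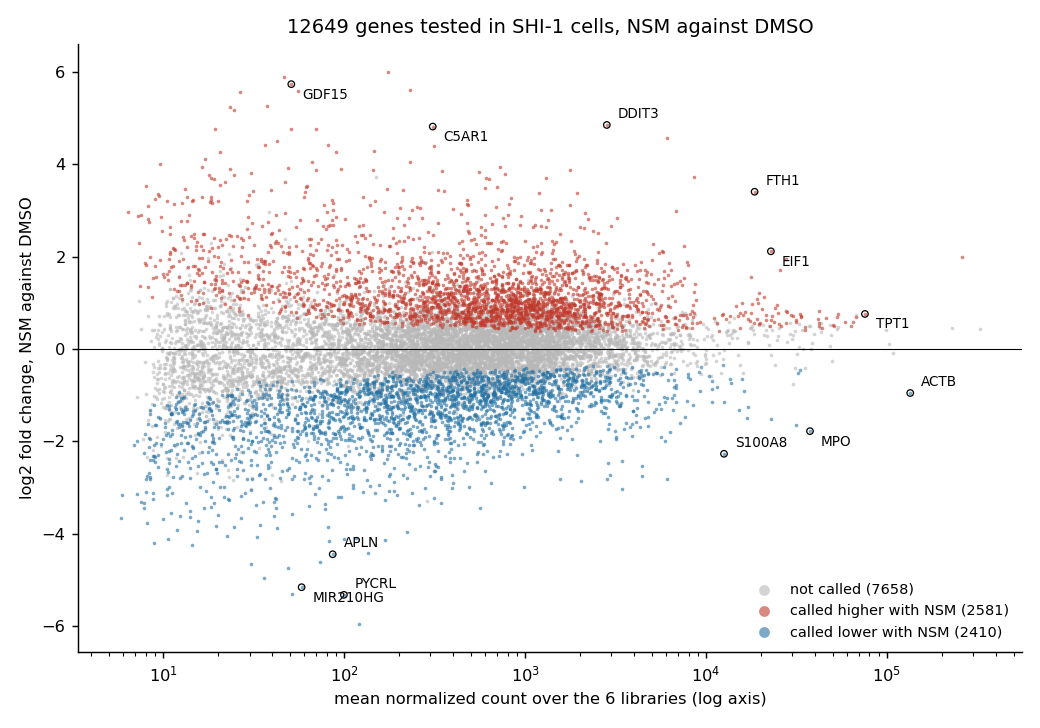
Log2 fold change of NSM against DMSO (y axis) against the mean normalized count over the 6 libraries (x axis, log scale), 1 point per gene tested. Red points are the 2581 genes called higher, blue points the 2410 called lower and grey points the rest. Among abundant genes FTH1 and EIF1 rise and MPO and S100A8 fall.

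The counts of every gene list below are to be read beside the shares over all genes tested, 20.4% higher and 19.1% lower. With replicates 1 and 2 alone those shares were 36.3% and 34.2%. Among the 48 gene lists, the integrated stress response had the largest share of members called higher. Of 30 genes on the list, 29 were tested, and 28 of these rose, 0 fell and only CTH, a cysteine synthesis enzyme, was not called. The median log2 fold change was 1.98 beside 0.02 for all genes tested, and 28 rose and 0 fell with replicates 1 and 2 alone. GDF15 and NUPR1 had passed the filter only through their NSM values. Of the 27 members with at least 10 in all libraries, 26 rose, with a median of 1.89.

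ATF4, the central transcription factor of the response, had 9707, 8833 and 8049 in the DMSO and 30445, 26499.9 and 22166 in the NSM libraries (log2 fold change 1.57 ± 0.16 SE, limma adjusted p = 0.000709). The NSM libraries all exceeded the DMSO libraries, with the lowest NSM value in replicate 3. DDIT3, which encodes the pro-apoptotic factor CHOP, had 244, 193 and 139 in the DMSO and 6192, 5479 and 4723 in the NSM libraries (log2 fold change 4.85 ± 0.23 SE, limma adjusted p = 0.000133). PPP1R15A, which encodes GADD34, the phosphatase subunit that reverses eIF2 phosphorylation, had 485, 500.2 and 478 in the DMSO and 12917, 10010.4 and 12230.1 in the NSM libraries (log2 fold change 4.58 ± 0.14 SE, limma adjusted p = 7.71e-05). DDIT3 and PPP1R15A were among the 12 largest rises of genes whose mean normalized count reached 50, and every NSM value of both exceeded every DMSO value. TRIB3, a pseudokinase that restrains ATF4, went from 1225, 1030.3 and 1119.7 with DMSO to 20453, 18889 and 8482 with NSM (log2 fold change 3.73 ± 0.33 SE, limma adjusted p = 0.00051), with replicate 3 well below the other NSM libraries. ATF3, a stress-induced repressor, rose by 2.85, SESN2, an inhibitor of mTORC1, by 2.91, and CHAC1, which degrades glutathione, by 2.44 on the log2 scale. GDF15, a secreted stress cytokine, was close to absence with DMSO (0.884, 0.756 and 0.98) and had 119.8, 112 and 71.6 with NSM (limma adjusted p = 0.000157). No fold is given for GDF15, since its DMSO values are near that of 1 read.

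Genes upstream of ATF4 showed no common direction. Of 16 genes for eIF2 subunits, eIF2 kinases, the eIF2B exchange factor and the mitochondrial relay, 4 rose (25.0%) and 3 fell (18.8%). Over all genes tested these shares were 20.4% and 19.1%. The median of the list was -0.04, and 5 rose and 7 fell with replicates 1 and 2 alone. EIF2AK3, which encodes the endoplasmic reticulum kinase PERK, had 264, 325 and 308 in the DMSO and 563, 555 and 1064 in the NSM libraries (log2 fold change 1.21 ± 0.28 SE, limma adjusted p = 0.0146). EIF2AK1, which encodes the kinase HRI that receives mitochondrial stress signals, had 3796, 3805 and 3983 in the DMSO and 3271, 3245 and 5258 in the NSM libraries and the groups overlapped (log2 fold change -0.01 ± 0.21 SE, limma adjusted p = 0.961). EIF2AK4, the amino acid sensor GCN2, was not called in the 6 libraries (log2 fold change 0.23 ± 0.14 SE, limma adjusted p = 0.22), although it was called higher with replicates 1 and 2 alone. EIF2S1, which encodes the subunit of eIF2 that is phosphorylated, was not called either (log2 fold change -0.48 ± 0.17 SE, limma adjusted p = 0.0682). With replicates 1 and 2 alone EIF2S1 and EIF2AK1 were called lower (log2 fold changes -0.64 and -0.24). EIF2S2, the beta subunit, rose by 1.23, PPP1R15B, the constitutive phosphatase subunit, rose by 0.93, and EIF2B1 fell by 1.03 on the log2 scale.

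The amino acid genes downstream of ATF4 rose in part. Of 18 genes tested for serine, one-carbon, proline and asparagine synthesis, 9 rose and 3 fell, with a median of 0.67, and 11 rose and 4 fell with replicates 1 and 2 alone. ASNS, asparagine synthetase, had 2219.6, 2084 and 2017 in the DMSO and 8940.0, 9845 and 7969 in the NSM libraries (log2 fold change 2.08 ± 0.13 SE, limma adjusted p = 0.000206). PHGDH, which starts serine synthesis, had 779, 740.5 and 759.7 in the DMSO and 4089.7, 3649.8 and 1946 in the NSM libraries (log2 fold change 2.02 ± 0.28 SE, limma adjusted p = 0.00221). MTHFD2, a mitochondrial folate enzyme, had 2072, 2084 and 2008 in the DMSO and 6546, 7098 and 10354 in the NSM libraries (log2 fold change 1.93 ± 0.19 SE, limma adjusted p = 0.000709). These genes were separated between the groups, but replicate 3 was the lowest NSM library for PHGDH and the highest for MTHFD2. ALDH18A1, the first enzyme of proline synthesis, went the other way, from 1429, 1543 and 1627 to 445, 466 and 421 (log2 fold change -1.78 ± 0.14 SE, limma adjusted p = 0.000342). Of 13 amino acid transporters tested, 6 rose and 2 fell, with a median of 0.54, and 8 rose and 4 fell with replicates 1 and 2 alone. SLC3A2, the heavy chain shared by several transporters, rose by 1.70 and SLC38A2, a glutamine carrier, by 0.95, while SLC36A1, a lysosomal exporter, fell by 1.26 and SLC7A6 by 0.87 on the log2 scale.

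Aminoacyl-tRNA synthetases, which charge tRNAs, are encoded by separate genes for the cytosol and the mitochondrion. Of 20 cytosolic enzymes tested, 10 rose and 3 fell, with a median of 0.43. Of 17 mitochondrial enzymes tested, 0 rose and 7 fell, with a median of -0.48. The alanyl enzyme AARS of the cytosol had 2532, 2734 and 2709 in the DMSO and 11599, 10218 and 7771 in the NSM libraries (log2 fold change 1.87 ± 0.17 SE, limma adjusted p = 0.000546), and its mitochondrial counterpart AARS2 had 801, 860.3 and 913 in the DMSO and 308, 343 and 195 in the NSM libraries (log2 fold change -1.64 ± 0.24 SE, limma adjusted p = 0.00253). The cytosolic cysteinyl enzyme CARS rose by 1.82 and the mitochondrial CARS2 fell by 1.21 on the log2 scale. WARS rose by 1.72 and TARS by 1.70, and the mitochondrial MARS2 fell by 1.74. With replicates 1 and 2 alone, 12 cytosolic enzymes rose and 5 fell, and 1 mitochondrial enzyme rose and 10 fell.

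Promoters of these genes were read from RefSeq (GRCh38.p14), from 250 bases before to 50 bases after the start of each gene, and searched on both strands for TGATGCAA, the core of the C/EBP-ATF response element that ATF4 binds. A promoter was found for 9719 of the genes tested, and 0.525% of these held the letters. They were present in 1.02% of 1076 promoters of genes called higher by at least 1 and in 0.342% of 1170 promoters of genes called lower by at least 1. Among the cytosolic synthetases, 5 of 12 promoters held them (41.7%), of which AARS, CARS and TARS belong to genes that rose and IARS and NARS to genes that were not called. Among serine, one-carbon, proline and asparagine genes 3 of 12 promoters held them, and among integrated stress response genes 2 of 24, those of CHAC1 and HERPUD1. The promoters below are shown because their genes rose and hold the motif, which is in capitals, on the gene's strand or reversed as TTGCATCA. A match is a description of the letters and not of binding, and sites outside these 300 bases were not searched.
CHAC1 (chr15:40953221-40953520, plus strand): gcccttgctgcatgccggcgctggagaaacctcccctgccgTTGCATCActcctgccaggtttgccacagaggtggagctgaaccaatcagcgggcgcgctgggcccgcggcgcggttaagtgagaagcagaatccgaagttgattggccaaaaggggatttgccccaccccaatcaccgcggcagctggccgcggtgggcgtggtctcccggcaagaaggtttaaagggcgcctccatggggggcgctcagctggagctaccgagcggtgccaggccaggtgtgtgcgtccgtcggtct
AARS (chr16:70289457-70289756, minus strand): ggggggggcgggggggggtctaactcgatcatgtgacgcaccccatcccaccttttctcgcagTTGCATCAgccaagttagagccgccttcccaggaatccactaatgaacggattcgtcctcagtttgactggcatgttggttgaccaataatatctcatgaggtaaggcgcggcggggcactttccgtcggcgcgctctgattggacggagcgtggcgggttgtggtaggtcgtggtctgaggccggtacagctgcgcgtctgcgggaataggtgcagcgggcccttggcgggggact
CARS (chr11:3057374-3057673, minus strand): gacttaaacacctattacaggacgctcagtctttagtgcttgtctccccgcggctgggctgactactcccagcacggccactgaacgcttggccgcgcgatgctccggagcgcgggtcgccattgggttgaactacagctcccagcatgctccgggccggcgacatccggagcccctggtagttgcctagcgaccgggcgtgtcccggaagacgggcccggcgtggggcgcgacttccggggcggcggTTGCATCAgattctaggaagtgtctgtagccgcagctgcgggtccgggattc
TARS (chr5:33440715-33441014, plus strand): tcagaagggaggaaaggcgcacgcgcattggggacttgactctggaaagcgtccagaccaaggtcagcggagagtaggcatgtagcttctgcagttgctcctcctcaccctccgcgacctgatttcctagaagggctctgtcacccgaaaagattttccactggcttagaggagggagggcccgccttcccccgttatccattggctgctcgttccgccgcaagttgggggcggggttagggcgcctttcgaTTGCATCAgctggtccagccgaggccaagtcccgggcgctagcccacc
MTHFD1L (chr6:150866236-150866535, plus strand): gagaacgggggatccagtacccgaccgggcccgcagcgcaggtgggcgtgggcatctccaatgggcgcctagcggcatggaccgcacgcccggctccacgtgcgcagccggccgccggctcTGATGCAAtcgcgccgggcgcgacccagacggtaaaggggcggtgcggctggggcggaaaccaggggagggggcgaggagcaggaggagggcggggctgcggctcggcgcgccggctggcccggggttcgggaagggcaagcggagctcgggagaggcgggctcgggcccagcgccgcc

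MTHFD1L, the mitochondrial formate-producing enzyme, had 531, 563 and 562 in the DMSO and 1224, 1187 and 1019 in the NSM libraries (log2 fold change 1.05 ± 0.15 SE, limma adjusted p = 0.00211). The gene was chosen for print after its motif was found, as were CHAC1, AARS, CARS and TARS.

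**Figure D3:**
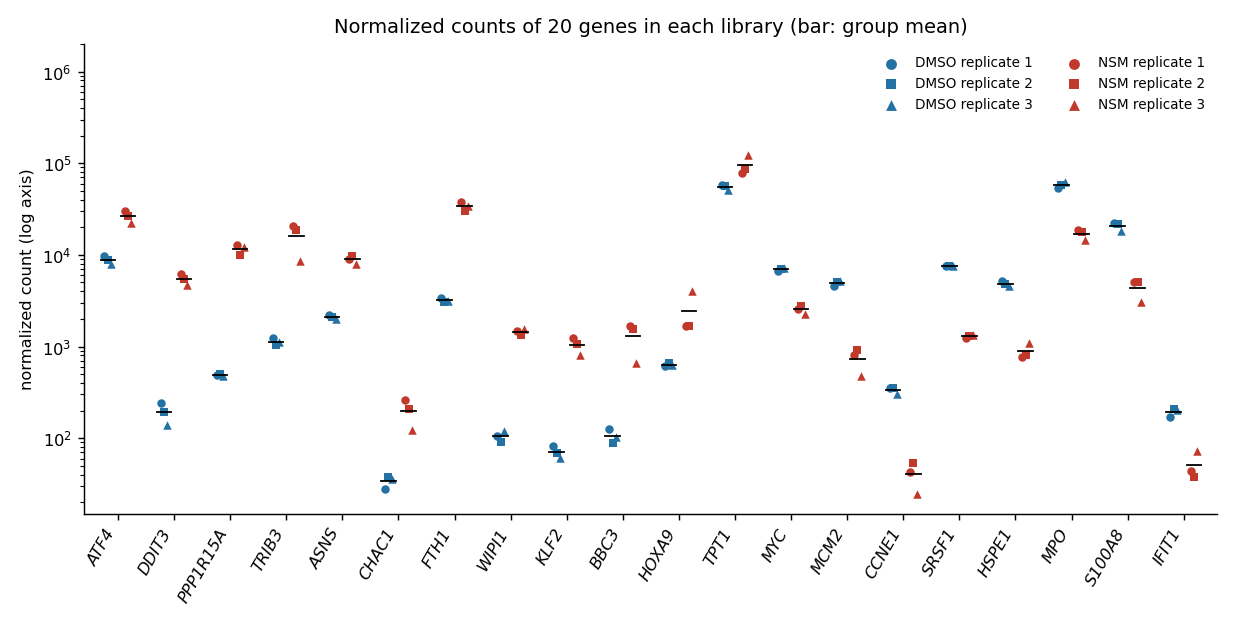
Normalized count (y axis, log scale) of 20 genes in each of the 6 libraries, with DMSO in blue, NSM in red, a symbol per replicate and a bar at the group mean. ATF4 to TPT1 are higher in every NSM library and MYC to IFIT1 lower in every NSM library, and NSM replicate 3 is the outlying NSM library for TRIB3, BBC3 and HOXA9.

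The chaperones of the endoplasmic reticulum belong to another stress pathway. Of 24 genes of the unfolded protein response of the endoplasmic reticulum, 9 rose and 2 fell, with a median of 0.29, and 10 rose and 5 fell with replicates 1 and 2 alone. HSPA5, which encodes the chaperone BiP, had 11608, 12099 and 12459.5 in the DMSO and 36603, 36295 and 45305 in the NSM libraries (log2 fold change 1.70 ± 0.13 SE, limma adjusted p = 0.00032). ERN1, which encodes the sensor IRE1, had 66.1, 66.2 and 61.1 in the DMSO and 432, 424 and 558 in the NSM libraries (log2 fold change 2.84 ± 0.19 SE, limma adjusted p = 0.000209). XBP1, the factor spliced by IRE1, rose by 1.37, HERPUD1, a component of protein degradation at the reticulum, by 1.64, and the co-chaperone DNAJB9 by 1.55 on the log2 scale.

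Many heat shock genes fell. Of 20 tested, which are cytosolic but for the mitochondrial HSPD1 and HSPE1, 9 fell and 1 rose, HSF2, with a median of -0.39, and with replicates 1 and 2 alone 13 fell and 4 rose. HSP90AA1, the inducible HSP90, had 47731, 49362 and 45766 in the DMSO and 13076, 13086 and 20462 in the NSM libraries (log2 fold change -1.65 ± 0.19 SE, limma adjusted p = 0.00125). HSPE1, the mitochondrial co-chaperonin of HSP60, had 5187, 4822 and 4584 in the DMSO and 771, 808 and 1084 in the NSM libraries (log2 fold change -2.47 ± 0.17 SE, limma adjusted p = 0.000232). Both were lower in every NSM library, with replicate 3 the least reduced. HSPA1A and HSPA1B, near-identical genes for inducible HSP70 whose reads cannot be separated with certainty, fell by 2.16 and 1.67 on the log2 scale. HSF1, the factor that activates these genes, had 873, 912 and 861 in the DMSO and 1615, 1398 and 663 in the NSM libraries and overlapped between the groups (log2 fold change 0.38 ± 0.33 SE, limma adjusted p = 0.394). With replicates 1 and 2 alone HSF1 was called higher (log2 fold change 0.77, limma adjusted p = 3.43e-07).

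The heat shock element letters GAANNTTC were present in 6 of 18 promoters of these heat shock genes (33.3%) and in 4.65% of the promoters of genes tested, and the tail-to-tail form TTCNNGAA in 3 of 18 and in 6.15%. The forms overlap where the units repeat. DNAJA1, an HSP70 co-chaperone, and HSPA1B are printed because these genes fell while their promoters hold the letters, in capitals.
DNAJA1 (chr9:33025023-33025322, plus strand): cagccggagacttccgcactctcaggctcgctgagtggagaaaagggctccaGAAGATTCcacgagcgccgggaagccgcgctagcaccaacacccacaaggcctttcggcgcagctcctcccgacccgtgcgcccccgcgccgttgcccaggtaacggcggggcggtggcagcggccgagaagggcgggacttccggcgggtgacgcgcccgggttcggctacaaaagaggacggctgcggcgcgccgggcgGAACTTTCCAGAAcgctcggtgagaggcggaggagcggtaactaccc
HSPA1B (chr6:31827488-31827787, plus strand): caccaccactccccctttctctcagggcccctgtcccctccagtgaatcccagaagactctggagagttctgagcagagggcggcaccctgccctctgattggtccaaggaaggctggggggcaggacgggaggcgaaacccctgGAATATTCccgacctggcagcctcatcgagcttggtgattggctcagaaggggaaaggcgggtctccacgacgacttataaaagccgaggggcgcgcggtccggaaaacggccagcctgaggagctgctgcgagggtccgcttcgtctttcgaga

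DNAJA1 went from 4629.7, 4762 and 4604 with DMSO to 1987, 1672 and 2663 with NSM (log2 fold change -1.17 ± 0.19 SE, limma adjusted p = 0.00362). Of 17 mitochondrial chaperones and proteases, 3 rose and 4 fell, with a median of -0.08, and 5 rose and 8 fell with a median of 0.02 with replicates 1 and 2 alone. The largest change among them was the fall of HSPE1 given above. HSPA9, the mitochondrial HSP70, rose by 0.92 and GRPEL2, its exchange factor, by 1.30, while PHB, prohibitin, fell by 1.10 on the log2 scale.

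Antioxidant genes changed in both directions. Of 25 targets of NRF2, the oxidative stress factor, 10 rose and 4 fell, with a median of 0.47, and 13 rose and 6 fell with replicates 1 and 2 alone. FTH1, the heavy chain of ferritin that stores iron, had 3356, 3068 and 3139.9 in the DMSO and 37344, 30462 and 33879 in the NSM libraries (log2 fold change 3.41 ± 0.13 SE, limma adjusted p = 0.0001). The NSM mean was 10.6-fold the DMSO mean and the groups were far apart. AKR1C1, an aldo-keto reductase, had 67.2, 96.7 and 85.3 in the DMSO and 1424, 1299 and 694 in the NSM libraries (log2 fold change 3.71 ± 0.31 SE, limma adjusted p = 0.000433), and belongs to a family of similar genes. MAFG, a partner of NRF2, rose by 1.59 and NFE2L2, which encodes NRF2 itself, by 0.99 on the log2 scale. HMOX1, heme oxygenase, had 9.72, 8.31 and 10.8 in the DMSO and 18.7, 11.6 and 11.5 in the NSM libraries and was not called (log2 fold change 0.47 ± 0.33 SE, limma adjusted p = 0.295). NQO1, a quinone reductase, fell by 1.18 and PRDX1, a peroxiredoxin, by 1.22. Of 5 metallothionein and zinc genes tested, MT1X, a metal-binding protein, rose by 1.86 and its activator MTF1 by 0.61, and 3 genes rose with replicates 1 and 2 alone.

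Genes of autophagy and the lysosome rose more often than they fell. Of 40 tested, 16 rose and 4 fell, with a median of 0.34, and 22 rose and 11 fell with replicates 1 and 2 alone. WIPI1, a protein of the forming autophagosome, had 105, 91 and 119 in the DMSO and 1465, 1335 and 1552 in the NSM libraries (log2 fold change 3.78 ± 0.17 SE, limma adjusted p = 0.000132). GABARAPL1, which is lipidated onto the autophagosome membrane, had 259, 253 and 238 in the DMSO and 1676, 1595 and 1575 in the NSM libraries (log2 fold change 2.69 ± 0.14 SE, limma adjusted p = 0.000133). SQSTM1, the cargo receptor p62, had 2119, 2147 and 2076 in the DMSO and 11238, 9957 and 6868 in the NSM libraries (log2 fold change 2.12 ± 0.20 SE, limma adjusted p = 0.000584). The groups were separated for all of these, and SQSTM1 was lowest in replicate 3. The transcription factors TFE3 and TFEB rose by 2.15 and 1.77, and the initiating kinase ULK1 by 1.62 on the log2 scale.

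Glycolytic genes fell more often than they rose. Of 23 tested, 13 fell and 1 rose, with a median of -0.81, and with replicates 1 and 2 alone 15 fell and 2 rose. PFKP, platelet-type phosphofructokinase, had 1126, 1096 and 1134 in the DMSO and 446, 459.6 and 219 in the NSM libraries (log2 fold change -1.65 ± 0.30 SE, limma adjusted p = 0.00564). SLC16A1, the lactate exporter MCT1, had 1659, 1798 and 1749 in the DMSO and 423, 493 and 762 in the NSM libraries (log2 fold change -1.68 ± 0.23 SE, limma adjusted p = 0.00215). PFKFB4, which sets the level of an activator of phosphofructokinase, fell by 1.99, LDHA, lactate dehydrogenase, by 1.26 and PGK1, phosphoglycerate kinase, by 1.47 on the log2 scale. The exception that rose was the glucose transporter SLC2A3, with 1694, 1657 and 1964 in the DMSO and 6024, 5705 and 7217 in the NSM libraries (log2 fold change 1.83 ± 0.15 SE, limma adjusted p = 0.000373).

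Targets of hypoxia-inducible factors rose more often than they fell. Of 20 tested, 8 rose and 4 fell, with a median of 0.48, and 10 rose and 6 fell with a median of 0.18 with replicates 1 and 2 alone. ADM, EGLN3 and P4HA2 had passed the filter only through their DMSO values. Of the 17 members with at least 10 in all libraries, 8 rose and 1 fell, with a median of 0.68. VEGFA, an angiogenic growth factor that also responds to ATF4, had 639.8, 505 and 519 in the DMSO and 3825, 3144 and 3396 in the NSM libraries (log2 fold change 2.64 ± 0.16 SE, limma adjusted p = 0.000163). BHLHE40, a repressor, rose by 2.35, NDRG1 by 1.80 and DDIT4, an mTORC1 inhibitor, by 2.11 on the log2 scale. HIF1A itself had 414, 408 and 545 in the DMSO and 485, 492 and 1686 in the NSM libraries, with 1 NSM library far above the rest, and was not called (log2 fold change 0.71 ± 0.48 SE, limma adjusted p = 0.279). Against these, EGLN3, a prolyl hydroxylase that HIF induces, had 27.5, 21.8 and 35.1 in the DMSO and 0, 2.47 and 0 in the NSM libraries, and ADM, adrenomedullin, had 40.7, 31 and 37.3 in the DMSO and 7.85, 3.88 and 6.39 in the NSM libraries. MIR210HG, the host transcript of a hypoxia-induced microRNA, had 128, 107 and 107 in the DMSO and 3.93, 1.94 and 1.28 in the NSM libraries (limma adjusted p = 0.000232). These 3 transcripts were near 0 in the NSM libraries and had passed the filter only through their DMSO values, and no fold is given.

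Nuclear genes for mitochondrial respiration had medians near 0. Of 37 complex I genes 2 rose and 10 fell, of 24 genes of complexes II to IV 1 rose and 4 fell, and of 16 ATP synthase genes 0 rose and 3 fell, with medians of -0.19, -0.14 and -0.17. These shares of fallen genes were 27.0%, 16.7% and 18.8% beside 19.1% over all genes tested. The calls of these lists depended on replicate 3, since with replicates 1 and 2 alone 13 complex I genes rose and 16 fell, 9 genes of complexes II to IV rose and 8 fell with a median of 0.05, and 4 ATP synthase genes rose and 6 fell. The largest fall was that of ATP5G1, a c-ring subunit of the synthase, with 1572, 1514 and 1364 in the DMSO and 608, 532 and 240.4 in the NSM libraries (log2 fold change -1.79 ± 0.34 SE, limma adjusted p = 0.00733). NDUFB2 and NDUFC2 of complex I fell by 1.25 and 1.02, and UQCRQ of complex III by 1.11 on the log2 scale. UQCRC2, a core subunit of complex III, rose by 0.56. Of 21 genes of the tricarboxylic acid cycle 1 rose and 3 fell (6 and 7 with replicates 1 and 2 alone), and among those that fell was PDHA1, a subunit of pyruvate dehydrogenase, by 0.57.

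Factors that maintain and express the mitochondrial genome were read separately. Of 18 genes of mitochondrial biogenesis and dynamics tested, 6 fell and 1 rose, with a median of -0.25, and 10 fell and 6 rose with replicates 1 and 2 alone. TFAM, which packages mitochondrial DNA, had 811, 908 and 847 in the DMSO and 248, 358 and 652 in the NSM libraries (log2 fold change -1.14 ± 0.34 SE, limma adjusted p = 0.0342). TFB2M, a transcription factor of the mitochondrial polymerase, had 262, 296 and 278 in the DMSO and 63.8, 89.1 and 83.1 in the NSM libraries (log2 fold change -1.82 ± 0.20 SE, limma adjusted p = 0.000871). The helicase gene listed as C10orf2, which encodes Twinkle, fell by 1.72 on the log2 scale, and UCP2, an inner membrane carrier, by 0.40. PINK1, the kinase that marks depolarized mitochondria, rose from 445, 444 and 458 to 1357, 1216 and 738 (log2 fold change 1.25 ± 0.24 SE, limma adjusted p = 0.00773). Of 75 mitochondrial ribosomal protein genes 20 fell (26.7%) and 7 rose (9.33%), with a median of -0.35, beside 19.1% and 20.4% over all genes. With replicates 1 and 2 alone 35 fell and 22 rose, beside 34.2% and 36.3% over all genes. Of these 75, MRPS25 fell by 1.65 on the log2 scale. The 13 protein-coding transcripts of the mitochondrial genome were not analysed here.

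By calls and medians, ribosomal protein genes and ribosome assembly genes moved in opposite directions. Of 79 cytosolic ribosomal protein genes, 44 rose and 0 fell, with a median of 0.55, and 77 rose and 1 fell with replicates 1 and 2 alone. Their summed share of each library was 12.1 to 13.8% with DMSO, 17.9 and 17.5% in NSM replicates 1 and 2 and 12.8% in replicate 3, so the share was not higher in replicate 3. RPS6 had 53946, 52178 and 49042 in the DMSO and 87912, 80785 and 80887 in the NSM libraries (log2 fold change 0.69 ± 0.11 SE, limma adjusted p = 0.00346), and RPL36A rose by 1.12 and RPL26 by 1.07 on the log2 scale. Ribosomal protein genes have many processed copies, so the counts of single genes are uncertain. The median of this list under equal sums was 0.28.

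Of 38 ribosome biogenesis genes, 25 fell and 2 rose, with a median of -0.87, and 33 fell and 2 rose with replicates 1 and 2 alone. The summed normalized count of the list was 124635 to 126924 with DMSO and 87706 and 91265 in NSM replicates 1 and 2. In replicate 3 it was 140071, above every DMSO library. POLR1A, the large subunit of RNA polymerase I, had 690.3, 785 and 913 in the DMSO and 137, 150.1 and 96.3 in the NSM libraries (log2 fold change -2.64 ± 0.23 SE, limma adjusted p = 0.000441). MRTO4 and NOP16, factors of large subunit assembly, fell by 2.21 and 2.19, and UTP20, of small subunit processing, by 1.87 on the log2 scale. E-box letters CACGTG, to which MYC and its partners bind, were present in 12 of 32 promoters of this list (37.5%) and in 10.4% of the promoters of genes tested.

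In the MYC network the activator fell and several antagonists rose. MYC had 6648, 7067 and 7246 in the DMSO and 2545, 2775 and 2294 in the NSM libraries (log2 fold change -1.46 ± 0.13 SE, limma adjusted p = 0.00047), and its partner MAX was not called (log2 fold change 0.27 ± 0.17 SE, limma adjusted p = 0.253). MXD1, which competes with MYC for MAX, had 282, 299.9 and 309.7 in the DMSO and 1712, 1537 and 2641 in the NSM libraries (log2 fold change 2.68 ± 0.22 SE, limma adjusted p = 0.000434). MXI1 and MNT, which act like MXD1, rose by 1.52 and 1.44 on the log2 scale. Of 11 network genes tested, 5 rose and 1 fell, and 8 rose and 1 fell with replicates 1 and 2 alone. Of 19 MYC target genes, 10 fell and 0 rose, with a median of -0.83, and 16 fell and 1 rose with replicates 1 and 2 alone. The summed normalized count of the list was 137747 to 144534 with DMSO and 95830 and 99202 in NSM replicates 1 and 2. In replicate 3 it was 144390, within the DMSO range. NME1, a nucleoside diphosphate kinase, fell by 1.73, NOP56, a snoRNP component, by 1.59, CDC25A, a phosphatase that activates cyclin-dependent kinases, by 1.52 and ODC1, which starts polyamine synthesis, by 1.48 on the log2 scale.

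Translation factors changed individually. EIF1, which guards start codon choice, had 8874, 8722 and 7958 in the DMSO and 40580.2, 39318 and 31460.1 in the NSM libraries (log2 fold change 2.12 ± 0.14 SE, limma adjusted p = 0.000211). EIF4G1, the scaffold of cap binding, had 9756, 10781 and 11799.6 in the DMSO and 3901, 3742 and 3001 in the NSM libraries (log2 fold change -1.61 ± 0.15 SE, limma adjusted p = 0.000584). EIF4EBP1, an inhibitor of cap-dependent initiation and an ATF4 target, rose by 1.31 and EIF5A fell by 1.30 on the log2 scale. MTOR was not called (log2 fold change -0.44 ± 0.17 SE, limma adjusted p = 0.0754), although it was called lower with replicates 1 and 2 alone (log2 fold change -0.30). Of 30 factors 8 rose and 6 fell, and 12 rose and 11 fell with replicates 1 and 2 alone. Of 15 snoRNA host transcripts, which are degraded when translated, 10 rose and 1 fell, with a median of 1.05 (13 and 2 with replicates 1 and 2 alone), led by EPB41L4A-AS1, which rose by 2.23, and SNHG12, which rose by 2.03 on the log2 scale. The counting was not stated to use strand, so EPB41L4A-AS1 and other antisense transcripts cannot be told apart from their partners.

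**Figure D4:**
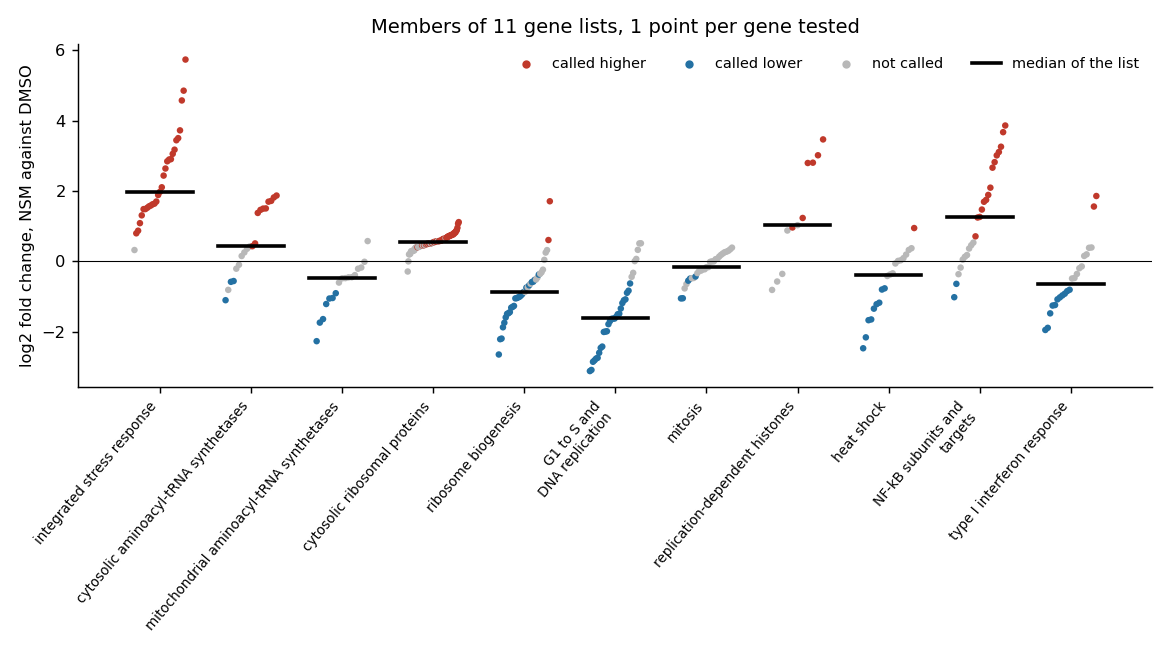
Log2 fold change of NSM against DMSO (y axis) of every tested member of 11 gene lists (x axis), 1 point per gene, red if called higher, blue if called lower and grey if not called, with a bar at the list's median. The integrated stress response lies above 0 with a median of 1.98, DNA replication genes lie mostly below 0 with a median of -1.60, and mitotic genes have a median of -0.16.

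Genes of the G1 to S transition and DNA replication fell strongly. Of 34 tested, 27 fell and 0 rose, with a median of -1.60, and 29 fell and 3 rose with replicates 1 and 2 alone. MCM2, a subunit of the replicative helicase, had 4626, 5045 and 5237 in the DMSO and 814, 912 and 476 in the NSM libraries (log2 fold change -2.81 ± 0.25 SE, limma adjusted p = 0.00052). UHRF1, which maintains DNA methylation at replication forks, had 3287, 3636 and 3792 in the DMSO and 491, 527 and 463 in the NSM libraries (log2 fold change -2.85 ± 0.14 SE, limma adjusted p = 0.000132). CCNE1, cyclin E1, had 351, 356 and 302 in the DMSO and 42.8, 54.2 and 24.8 in the NSM libraries (log2 fold change -3.08 ± 0.30 SE, limma adjusted p = 0.000695). No NSM library reached the lowest DMSO library for these genes. MCM10, an initiation factor, fell by 3.12, PCNA, the replication clamp, by 2.74 and E2F1, the transcription factor of this program, by 1.18 on the log2 scale. Of 29 mitotic genes, 5 fell and 0 rose, with a median of -0.16. The count depended on replicate 3, since 18 fell and 3 rose with replicates 1 and 2 alone, with a median of -0.25, beside 34.2% lower and 36.3% higher over all genes. KIF11, a spindle motor, had 2033, 2045 and 2225 in the DMSO and 723, 828 and 1750.3 in the NSM libraries (log2 fold change -1.05 ± 0.33 SE, limma adjusted p = 0.0405), and ESPL1, separase, had 702, 714 and 705 in the DMSO and 475, 411 and 202 in the NSM libraries (log2 fold change -1.05 ± 0.32 SE, limma adjusted p = 0.0374). Replicate 3 was the least reduced library for KIF11 and the most reduced for ESPL1.

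Genes that hold back the cell cycle rose in part. Of 22 growth arrest genes and cell cycle inhibitors tested, 11 rose and 0 fell, with a median of 1.02, and 15 rose and 1 fell with replicates 1 and 2 alone. CDKN2D, which encodes the CDK4 and CDK6 inhibitor p19, had 343, 317 and 299.6 in the DMSO and 4659, 3866 and 2096 in the NSM libraries (log2 fold change 3.39 ± 0.30 SE, limma adjusted p = 0.000483). TNFRSF10B, the death receptor DR5 and a CHOP target, had 106, 101 and 82.3 in the DMSO and 1278, 1144 and 879 in the NSM libraries (log2 fold change 3.49 ± 0.21 SE, limma adjusted p = 0.000163). BTG2, an antiproliferative factor, had 175, 199 and 185 in the DMSO and 1095, 846 and 1120.0 in the NSM libraries (log2 fold change 2.44 ± 0.18 SE, limma adjusted p = 0.000259). The NSM libraries of each lay above the DMSO libraries, with replicate 3 lowest for CDKN2D and TNFRSF10B. CDKN1A, the inhibitor p21, rose by 1.07 on the log2 scale. Replication-dependent histone genes, whose regular transcripts lack a poly(A) tail, rose for 6 of 11 tested (7 with replicates 1 and 2 alone), with HIST2H2BE at 23.9, 31 and 28.4 in the DMSO and 357, 308 and 285 in the NSM libraries (log2 fold change 3.47 ± 0.20 SE, limma adjusted p = 0.000163).

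In the BCL2 family 6 of 14 genes rose and 0 fell, and 10 rose and 2 fell with replicates 1 and 2 alone. BBC3, which encodes the pro-apoptotic BH3 protein PUMA, had 127, 89.4 and 102 in the DMSO and 1656, 1574 and 665 in the NSM libraries (log2 fold change 3.50 ± 0.37 SE, limma adjusted p = 0.000881). BMF, another BH3-only protein, had 456, 452 and 487 in the DMSO and 2259, 2189.7 and 1617 in the NSM libraries (log2 fold change 2.10 ± 0.17 SE, limma adjusted p = 0.000379). PMAIP1, which encodes NOXA, rose by 1.18, and the survival genes BCL2L2 and MCL1 by 1.51 and 0.74 on the log2 scale. BCL2 had 434, 533 and 520.5 in the DMSO and 370.4, 433 and 445 in the NSM libraries, overlapped between the groups and was not called (log2 fold change -0.25 ± 0.17 SE, limma adjusted p = 0.275). With replicates 1 and 2 alone BCL2 was called lower (log2 fold change -0.30). Members of opposite function thus rose together.

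Immediate early genes rose. Of 25 AP-1 and immediate early factors tested, 18 rose and 0 fell, with a median of 1.44, and 20 rose and 0 fell with replicates 1 and 2 alone. KLF2, a zinc finger factor, had 83.1, 69.5 and 60.8 in the DMSO and 1239.9, 1067 and 804 in the NSM libraries (log2 fold change 3.84 ± 0.23 SE, limma adjusted p = 0.000163). ZFP36, which destabilizes inflammatory mRNAs, had 346, 351 and 364 in the DMSO and 2644, 2042 and 2035 in the NSM libraries (log2 fold change 2.65 ± 0.16 SE, limma adjusted p = 0.000163). MAFF, a small MAF protein, rose by 2.83, FOS by 1.68 and JUN by 1.02 on the log2 scale. IER3 and KLF4 had passed the filter only through NSM, and 16 of the 22 members with at least 10 in all libraries rose.

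NF-kB genes rose as well. Of 25 subunits and targets tested, 15 rose and 2 fell, with a median of 1.27, and 18 rose and 2 fell with replicates 1 and 2 alone. NFKBIA, the inhibitor that NF-kB induces, had 618, 529 and 505 in the DMSO and 4209, 3346 and 4162 in the NSM libraries (log2 fold change 2.82 ± 0.16 SE, limma adjusted p = 0.000157). RELB, a subunit of the alternative pathway, had 179.5, 146 and 120.4 in the DMSO and 2082, 1722 and 786 in the NSM libraries (log2 fold change 3.26 ± 0.38 SE, limma adjusted p = 0.00116). CCL3, a chemokine, had 56.6, 43.1 and 33.3 in the DMSO and 827, 580.4 and 556 in the NSM libraries (log2 fold change 3.86 ± 0.26 SE, limma adjusted p = 0.000241). The rise was present in every NSM library, and for RELB it was smallest in replicate 3. BCL3, a nuclear cofactor, rose by 3.67, ICAM1, an adhesion molecule, by 3.11 and NFKB1, a subunit, by 0.71 on the log2 scale. NFKBIZ, another nuclear cofactor, was below 10 with DMSO (6.27, 7.66 and 5.96) and had 124, 101 and 156 with NSM. The members that fell were CCL2, a monocyte chemoattractant, and CD83, a maturation marker, by 1.02 and 0.64.

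STAT genes and their feedback targets rose in 12 of 22 cases and fell in 1, CSF2RB, with a median of 0.74, and 18 rose and 2 fell with replicates 1 and 2 alone. STAT3 had 1508, 1644 and 1776 in the DMSO and 2892, 2470.1 and 2115 in the NSM libraries (log2 fold change 0.59 ± 0.16 SE, limma adjusted p = 0.0254). SOCS3, a feedback inhibitor that STAT3 induces, had 47.7, 34 and 35.3 in the DMSO and 140.4, 106 and 67.8 in the NSM libraries (log2 fold change 1.36 ± 0.31 SE, limma adjusted p = 0.0147). BCL6, a repressor, had 104, 83.2 and 92.3 in the DMSO and 518, 409.8 and 656 in the NSM libraries (log2 fold change 2.47 ± 0.22 SE, limma adjusted p = 0.000507), and the kinase gene PIM3 rose by 2.10 on the log2 scale. These values are of RNA, and the phosphorylation of STAT3 was not measured. The call of STAT3 was lost under equal sums, with a log2 fold change of 0.32.

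Wnt genes showed no common direction, and Notch genes rose more often than they fell. Of 19 Wnt genes tested, 5 rose (26.3%) and 3 fell (15.8%), with a median of -0.05, beside 20.4% and 19.1% over all genes. With replicates 1 and 2 alone 6 rose and 4 fell. CTNNB1, beta-catenin, had 1555, 1581 and 1639 in the DMSO and 1832, 1686 and 1626 in the NSM libraries and was not called (log2 fold change 0.11 ± 0.13 SE, limma adjusted p = 0.538), and AXIN2, a target gene of the pathway, was listed at 0 in 5 of the 6 libraries. AXIN1, of the destruction complex, rose by 1.55, while the receptors LRP5 and LRP6 fell by 1.68 and 1.32 on the log2 scale. Of 15 Notch genes, 6 rose and 1 fell, with a median of 0.45, and 8 rose and 4 fell with replicates 1 and 2 alone. The receptor gene NOTCH1 rose by 0.69 on the log2 scale. JAG1, a ligand, had 1636, 1676 and 1851 in the DMSO and 8163, 7048 and 10081 in the NSM libraries (log2 fold change 2.28 ± 0.16 SE, limma adjusted p = 0.000264), and NRARP, a target gene, had 190.0, 212 and 229 in the DMSO and 50.1, 61 and 69 in the NSM libraries (log2 fold change -1.80 ± 0.20 SE, limma adjusted p = 0.001). HES1, another target gene, passed the filter only through NSM, with 2.65, 1.51 and 3.92 in the DMSO and 38.3, 32 and 32 in the NSM libraries. The target genes NRARP and HES1 thus moved in opposite directions.

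Type I interferon genes fell more often than they rose. Of 22 tested, 11 fell and 2 rose, with a median of -0.64, and 13 fell and 3 rose with replicates 1 and 2 alone. IFIT1, an antiviral RNA binder, had 172, 206 and 204 in the DMSO and 44.3, 37.9 and 71.7 in the NSM libraries (log2 fold change -1.95 ± 0.27 SE, limma adjusted p = 0.00229). OAS3, an oligoadenylate synthetase, had 1135, 1337 and 1468 in the DMSO and 346, 261 and 484 in the NSM libraries (log2 fold change -1.89 ± 0.25 SE, limma adjusted p = 0.00182). The members that rose were IRF7, the factor that amplifies interferon production, by 1.86, and IFIH1, the RNA sensor MDA5, by 1.56 on the log2 scale.

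Sterol synthesis genes rose in 10 of 30 cases and fell in 2, with a median of 0.65, and 17 rose and 5 fell with replicates 1 and 2 alone. MSMO1, a sterol demethylase, rose by 1.82, HMGCS1, an early synthase of the pathway, by 1.59 and SREBF2, the controlling factor, by 0.94 on the log2 scale. Of 20 fatty acid genes 3 rose and 3 fell, and 5 rose and 8 fell with replicates 1 and 2 alone. ACSL1, which activates fatty acids, rose by 1.75, PLIN2, a lipid droplet protein, by 1.03, and CPT2, of mitochondrial import, fell by 1.19.

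Splicing regulators and proteasome subunits fell in part. Of 34 SR and hnRNP genes with their kinases, 12 fell and 5 rose, with a median of -0.26, and 18 fell and 12 rose with replicates 1 and 2 alone. SRSF1 had 7549, 7492 and 7609 in the DMSO and 1237, 1309 and 1351 in the NSM libraries (log2 fold change -2.54 ± 0.12 SE, limma adjusted p = 0.000132). HNRNPA2B1 had 34031, 33562 and 32646 in the DMSO and 9736, 9644 and 16794 in the NSM libraries (log2 fold change -1.52 ± 0.23 SE, limma adjusted p = 0.00283). Both encode proteins that bind pre-mRNA, and the NSM values of SRSF1 lay close together. HNRNPM fell by 1.90 and SRSF2 by 1.69 on the log2 scale. The kinases of SR proteins went the other way, with CLK3 rising by 1.79, CLK1 by 1.66 and CLK4 by 1.62. Of 36 proteasome genes 10 fell (27.8%) and 1 rose (2.78%), with a median of -0.33, beside 19.1% and 20.4% over all genes. With replicates 1 and 2 alone 20 fell and 6 rose. The list was led by PSMD1, which fell by 1.35, and PSMA3, which fell by 1.07 on the log2 scale.

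**Figure D5:**
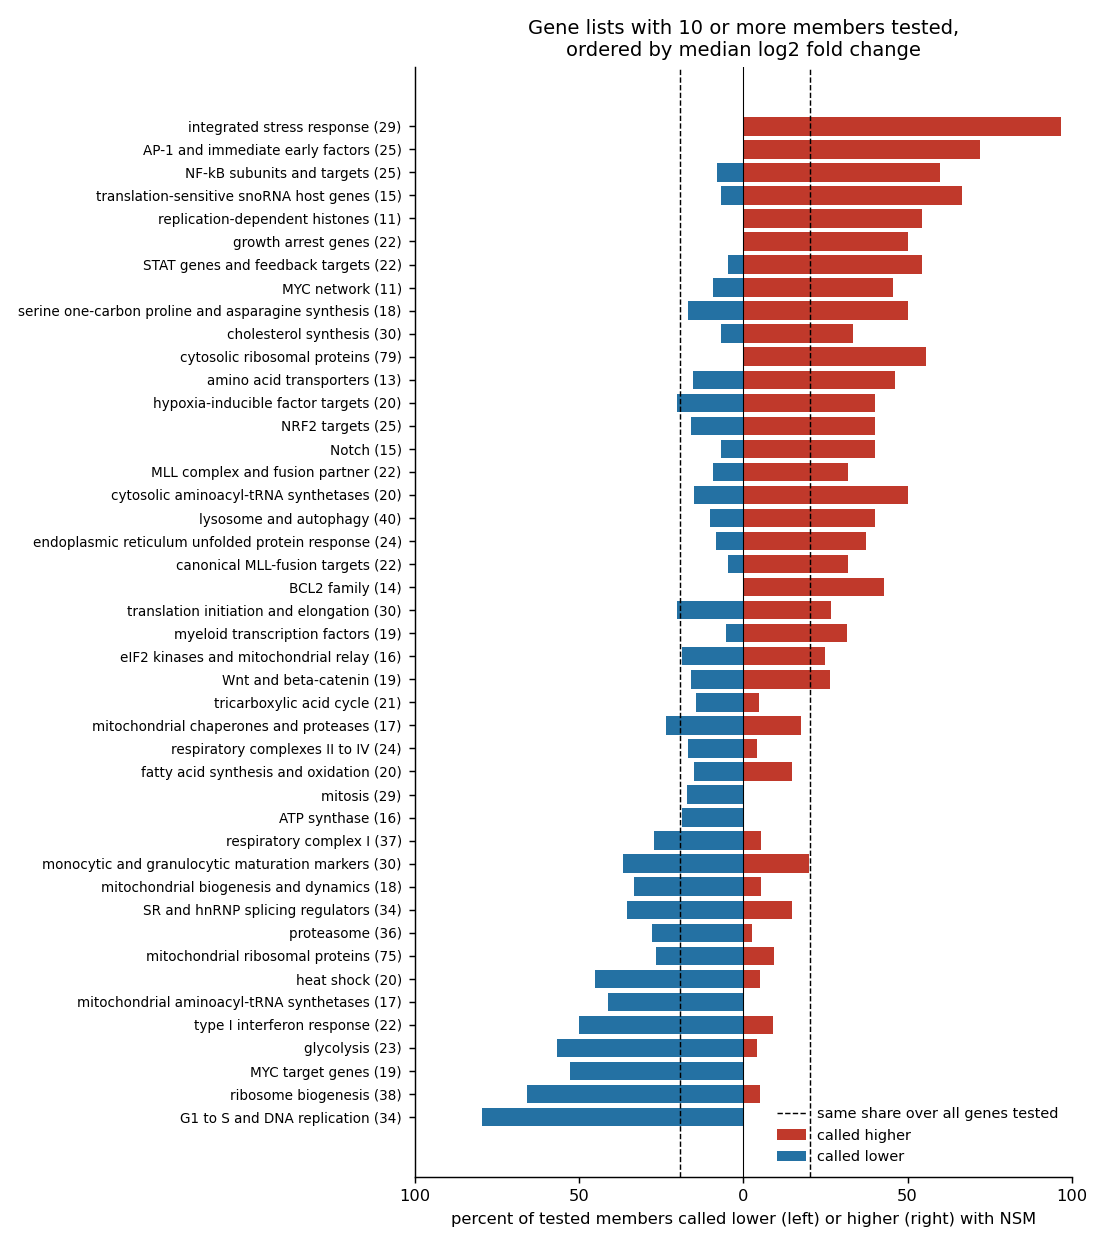
Percent of the tested members of each gene list called lower (blue, left) or higher (red, right) with NSM, for lists with 10 or more members tested, the number in brackets, ordered by median log2 fold change. Dashed lines mark the shares over all genes tested, 19.1% lower and 20.4% higher. The integrated stress response is at the top and DNA replication at the bottom.

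Targets of MLL fusions, in a list written from general knowledge, did not fall with NSM as a list. The authors report negative enrichment with NSM of differently defined sets of MLL-fusion targets, which were not read here. Of 22 canonical targets tested, 7 rose (31.8%) and 1 fell (4.55%), with a median of 0.24, beside 20.4% higher and 19.1% lower over all genes. The member that fell, EYA1, had passed the filter only through its DMSO values. HOXA9, the homeobox factor that maintains leukemic self-renewal, had 612, 659 and 629 in the DMSO and 1673, 1682 and 4039 in the NSM libraries (log2 fold change 1.83 ± 0.34 SE, limma adjusted p = 0.00675). PBX3, a cofactor of HOXA9, had 1701, 1742 and 1827 in the DMSO and 4333, 3945 and 8037 in the NSM libraries (log2 fold change 1.55 ± 0.27 SE, limma adjusted p = 0.005). MEIS1, another cofactor, had 1111, 1197 and 1219 in the DMSO and 1649.7, 1626 and 2288 in the NSM libraries (log2 fold change 0.64 ± 0.17 SE, limma adjusted p = 0.0253). Replicate 3 was the highest library for all of these, and with replicates 1 and 2 alone the log2 fold changes were 1.40, 1.24 and 0.48. HOXA4 and HOXA3 rose by 2.06 and 1.20 on the log2 scale. With replicates 1 and 2 alone 8 targets rose and 7 fell, beside 36.3% higher and 34.2% lower over all genes. Apart from EYA1, the members named here all rose. Under equal sums the median of the list was -0.02. MEIS1 lost its call under equal sums, where its log2 fold change was 0.37.

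Of 22 genes of the MLL complexes and fusion partners, 7 rose and 2 fell, with a median of 0.45, and 12 rose and 6 fell with replicates 1 and 2 alone. KMT2A, which encodes MLL, had 1166, 1284 and 1312 in the DMSO and 2588, 2075 and 2817 in the NSM libraries (log2 fold change 0.98 ± 0.16 SE, limma adjusted p = 0.00373), and reads of the fusion transcript count toward this gene too. MLLT4, the gene of the partner AF6, had 892, 906 and 908 in the DMSO and 1379.7, 1316 and 1707 in the NSM libraries (log2 fold change 0.69 ± 0.15 SE, limma adjusted p = 0.0116). Both genes were higher in every NSM library.

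Myeloid maturation genes moved in both directions. Of 30 markers tested, 11 fell and 6 rose, with a median of -0.22, and 14 fell and 11 rose with replicates 1 and 2 alone. MPO had 54162, 57371 and 62640.4 in the DMSO and 18629.6, 17860.3 and 14454 in the NSM libraries (log2 fold change -1.78 ± 0.14 SE, limma adjusted p = 0.00036), which was among the 5 largest losses in normalized count. S100A8, a calcium-binding protein of monocytes and granulocytes, had 22327, 21557 and 18312 in the DMSO and 5119, 5032 and 3045 in the NSM libraries (log2 fold change -2.27 ± 0.22 SE, limma adjusted p = 0.000712). The protease gene PRTN3 fell by 2.05, CSF1R, the receptor of the macrophage growth factor, by 1.77 and CD36, a scavenger receptor, by 1.32 on the log2 scale. CD14, the monocyte coreceptor for lipopolysaccharide, had 64.8, 54 and 60.1 in the DMSO and 221, 223 and 109 in the NSM libraries (log2 fold change 1.54 ± 0.31 SE, limma adjusted p = 0.00866), and ITGAM, which encodes CD11b, rose by 0.50. In bulk RNA, fewer cells of a type and less RNA of a gene per cell cannot be told apart. Of 19 myeloid transcription factors 6 rose and 1 fell with a median of 0.10, and 8 rose and 5 fell with a median of -0.10 with replicates 1 and 2 alone. The genes that rose included CEBPB, of inflammatory and stress responses, by 1.49 and SPI1 by 0.68. CEBPA, of granulocytic differentiation, was not called (log2 fold change -0.90 ± 0.39 SE, limma adjusted p = 0.11), with 1 NSM library far below the others at 743. With replicates 1 and 2 alone CEBPA was called lower (log2 fold change -0.40).

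Several of the largest changes belonged to no list. The genes named here had a mean normalized count of at least 50 and were also called with NSM replicates 1 and 2 alone. SCLY, chosen after its values were seen because its fall was larger than theirs, had 207, 234 and 240.2 in the DMSO and 47.1, 0 and 0 in the NSM libraries and was not called with replicates 1 and 2 alone. C5AR1, the receptor of complement C5a, had 22.6, 17.8 and 20.2 in the DMSO and 565, 554 and 674 in the NSM libraries (log2 fold change 4.82 ± 0.19 SE, limma adjusted p = 0.0001). KDM7A, a histone demethylase, had 30.0, 22.7 and 27.4 in the DMSO and 471, 458 and 881 in the NSM libraries (log2 fold change 4.39 ± 0.30 SE, limma adjusted p = 0.000234). INHBE, which encodes an activin subunit, had 32.7, 28 and 15.7 in the DMSO and 532, 503 and 275 in the NSM libraries (log2 fold change 4.05 ± 0.37 SE, limma adjusted p = 0.000544). All lay above every DMSO value, with replicate 3 highest for KDM7A and lowest for INHBE. KCNE1, a potassium channel subunit, and DMGDH, a mitochondrial enzyme of choline breakdown, rose by 4.28 and 4.26 on the log2 scale. P2RX7, the ATP-gated channel of macrophages, had 1.85, 3.16 and 0 in the DMSO and 106, 109 and 113 in the NSM libraries, REM2, a small GTPase, had 5.34, 1.43 and 4.89 in the DMSO and 173, 171 and 60.6 in the NSM libraries, and GDAP1L1 had 7.17, 1.77 and 0.97 in the DMSO and 113, 117 and 65.5 in the NSM libraries. No fold is given for these 3 genes, whose DMSO values were all below 10.

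Among the largest falls, CEACAM6, a granulocyte adhesion protein, had 380.0, 431 and 438 in the DMSO and 21.6, 15.5 and 51.1 in the NSM libraries (log2 fold change -3.95 ± 0.41 SE, limma adjusted p = 0.000854). RAB7B, a lysosomal trafficking GTPase, had 256, 265 and 254 in the DMSO and 29.1, 5.82 and 7.68 in the NSM libraries (log2 fold change -4.42 ± 0.54 SE, limma adjusted p = 0.00139). C10orf128 had 341, 320.2 and 300.4 in the DMSO and 12.5, 19.4 and 20.8 in the NSM libraries (log2 fold change -4.14 ± 0.24 SE, limma adjusted p = 0.000163). No NSM library came near the lowest DMSO value for any of these. ARG1, arginase, fell by 4.12, FFAR4, a fatty acid receptor, by 4.16, GPR85 by 3.86 and DPY19L2P2 by 4.10 on the log2 scale. APLN, the peptide apelin, had 165, 155 and 178 in the DMSO and 7.85, 4.84 and 7.67 in the NSM libraries. HPDL had 99.9, 85.4 and 101 in the DMSO and 6.87, 9.69 and 5.11 in the NSM libraries. APLN and HPDL had passed the filter only through their DMSO values, and no fold is given for them. PYCRL, the proline synthesis enzyme PYCR3, had 183, 197 and 198 in the DMSO and 7.57, 12.1 and 0 in the NSM libraries, and RNF207 had 161, 123 and 130.2 in the DMSO and 13.3, 11.4 and 0 in the NSM libraries, so that 1 NSM library of each was listed at 0 and no fold is given (limma adjusted p = 0.00447 for PYCRL and 0.0104 for RNF207).

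In normalized count rather than fold, and with ribosomal RNA left out, the largest gains were those of TPT1, RPS6, FTH1, EIF1 and RPS24, and the largest losses those of ACTB, MPO, HSP90AA1, HNRNPA2B1 and S100A8. TPT1, a growth-related protein with a translationally regulated mRNA, had 58161, 56933 and 51313 in the DMSO and 77932, 86560.5 and 122141 in the NSM libraries (log2 fold change 0.76 ± 0.18 SE, limma adjusted p = 0.0169), and its call was lost under equal sums. ACTB, beta-actin, had 170983, 178240.0 and 182149 in the DMSO and 98521, 87830.0 and 88347 in the NSM libraries (log2 fold change -0.95 ± 0.11 SE, limma adjusted p = 0.00104). RPS24 rose by 0.76 on the log2 scale. ACTB was the gene with the largest loss, from a mean of 177124 ± 5666 with DMSO to 91566 ± 6029 with NSM (SD, n = 3).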

How the data were processed

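RNA-seq of SHI-1 cells was taken as deposited, 1 table per library. The authors trimmed reads with Trimmomatic and quantified them with STAR and Salmon on NCBI GRCh38, and DESeq2 scaled the counts. The submitters' processing notes also name bcl2fastq 2.19, Bowtie2, Picard, featureCounts and hg38 without a role. The deposited values are a signal, the normalized count of each gene, and the header line names 24 libraries, so the scaling was set over libraries not all analysed here. About 28 to 30% of values were whole multiples (tolerance 0.001) of the smallest step of a library, so whole reads could not be restored and a test for counts was not used. Groups followed the titles.

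Values were log2(value + 1) transformed, genes with at least 10 in at least 3 of the 6 libraries were kept, and limma 3.58.1 (trend, robust, R 4.3.3) was fitted to these 6 libraries, with Benjamini-Hochberg adjustment over all 12649 genes and a threshold of 0.05. The script was tested on simulated data with 200 changed genes among 12649: 96% of those at a log2 change of 2 and 30% of those at 1 were recovered, and 6.67% of calls were false. The simulated noise was independent between genes, with no deviation by GC content and far fewer changed genes than were called here. These rates therefore check the script and are not rates for these data. Lists are described by counts and medians, with no test. The 48 lists and the genes were chosen with earlier results of these data known. Named genes were the 12 largest rises and falls with a mean of at least 50, no overlap and the same call with NSM replicates 1 and 2, the 5 largest gains and losses in count, up to 4 called members per list and a set of pathway hubs. Some genes that these rules name are not reported here. Other named members were chosen after their values were seen. GC content came from GENCODE 44 for 94.2% of the genes tested. Figures were drawn with matplotlib. Alternatives were other pseudocounts, filters and scalings, removal of the GC trend, a replicate block, library weights, all 12 libraries and leaving out each library.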

Additional observations from a re-analysis of the deposited data

How the results depend on the processing

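The 4991 calls were 4951 and 5105 with pseudocounts of 0.1 and 10, 5122 without the filter, 4459 with at least 10 in all 6 libraries, 4984 with median-of-ratios scaling, 5151 and 5102 with equal sums over all genes and without ribosomal RNA, 6635 in a fit of all 12 libraries and 7095 with the GC trend removed. Library weights gave 10671 calls, but their estimation did not converge. Leaving out a library gave 2674 to 8920 calls, 8920 without NSM replicate 3, 2783, 2674 and 2788 without DMSO replicates 1, 2 and 3, and 4323 and 3893 without NSM replicates 1 and 2, and with an absolute log2 fold change of at least 1 it gave 2244 to 3425 in place of 3049. Deviations of same-numbered libraries had correlations of 0.11, -0.01 and 0.08, and those of differently numbered libraries -0.13 to 0.11. These few values cannot decide whether the replicate numbers pair the libraries. With the replicate block 4638 genes were called, or 7101 with the GC trend removed as well. No named gene changed its call to the opposite direction under any of these settings. Of 236 named genes tested, 19 lost their call under equal sums, among them STAT3, MEIS1, MLLT4, SPI1, MCL1, NFE2L2 and TPT1, 10 under the replicate block, 14 and 20 without NSM replicates 1 and 2, and 45 to 47 without a DMSO library. Of 47 list medians, 5 changed sign under equal sums, those of the BCL2 family, the canonical MLL-fusion targets, the myeloid transcription factors, the translation factors and the ribosomal RNA genes. Without NSM replicate 3, 3 changed sign, those of the mitochondrial chaperones, the myeloid transcription factors and respiratory complexes II to IV. The median of the eIF2 list changed sign without NSM replicate 1, NSM replicate 2 or DMSO replicate 3, that of the Wnt list without DMSO replicate 3, with library weights and with at least 10 in all 6 libraries, and that of ribosomal RNA without DMSO replicate 1, NSM replicate 1 or NSM replicate 2. Depth limits low genes: a DMSO value near 1 is about 1 read. Intervals of counting error were not computed, since the files hold no counts.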

Other observations

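The direction of change varied with abundance. In the 20% of the genes tested with the lowest mean normalized count, 14.3% were called higher and 22.4% lower with NSM (2530 genes, median log2 fold change -0.32). In the 20% with the highest mean, 28.9% were called higher and 15.1% lower (2530 genes, median 0.24). Protein-coding genes were called higher in 20.8% and lower in 18.9% of 11407 cases, and long noncoding transcripts in 17.6% and 23.6% of 335 cases. Calls also varied with GC content, since 29.8% of the genes in the lowest of 5 GC bins and 46.7% in the middle bin were called. With NSM replicates 1 and 2 alone, the share called lower was 42.9% in the lowest GC bin and 26.3% in the highest, and the share called higher 27.1% and 45.3%.

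Among 6 symbols of ribosomal RNA, RNR1 and RNR2 rose. RNR2 had 100295, 92652 and 83044 in the DMSO and 220904, 275272 and 790510.0 in the NSM libraries (log2 fold change 1.99 ± 0.45 SE, limma adjusted p = 0.013), with NSM replicate 3 far above the other NSM libraries, and RNR1 had 8001, 14604 and 11732 in the DMSO and 38078, 37342 and 55685 in the NSM libraries (log2 fold change 1.95 ± 0.26 SE, limma adjusted p = 0.0019). The symbols RNR1 and RNR2 are used for more than 1 kind of ribosomal RNA, and the files do not say which they mean.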
